A study of Homo sapiens with 6 samples.

Results

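The transition from G1 to S phase is driven by cyclins, which activate cyclin-dependent kinases, and is restrained by inhibitors that bind the complexes. D-type cyclins act with CDK4 and CDK6 and E-type cyclins with CDK2. Both kinds of complex phosphorylate the retinoblastoma protein (RB), which then releases the E2F factors that switch on genes of S phase. The CIP/KIP inhibitors p21 (CDKN1A), p27 (CDKN1B) and p57 (CDKN1C) bind cyclin-CDK complexes, block CDK2 in particular, and also take part in the assembly of cyclin D with its kinases. CCND1 is known as a target of growth factor signalling in epithelial tumours, and p27 as an inhibitor that is abundant in resting cells.

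The transcripts described here are those of 10 genes of this machinery, chosen by name: the D-type cyclin genes CCND1 and CCND3, the E-type cyclin genes CCNE1 and CCNE2, the kinase genes CDK2, CDK4 and CDK6, and the 3 CIP/KIP inhibitor genes. Each name matched 1 row of a count table of 58735 genes. The 6 libraries came from Panc-1, a human pancreatic carcinoma line labelled as epithelial and of WT genotype. The cells of 3 libraries had shared culture for 72 h with CAF, the usual short form for cancer-associated fibroblasts. Those of the remaining 3 had been kept with CAF overexpressing PAI-1, a serpin that inhibits plasminogen activators. PAI-1 was raised in the fibroblasts, not in Panc-1. The sample titles call the reference partner CAF, while the headers of its count columns read CAF-NC, without spelling out NC. This group is called CAF here, which does not mean that its fibroblasts were unmodified. The sources used here do not give the origin of the CAF, the way PAI-1 was overexpressed or the way Panc-1 was kept apart from CAF. The labels call the replicates biological without saying whether cultures were separate, so p-values reflect only how far these libraries spread, which may be technical. The comparison asks how these genes of Panc-1 differ when the fibroblast partner overexpresses PAI-1.

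The libraries held 13628508 to 16006880 counts, so that 3 counts correspond to 0.187 to 0.22 CPM (counts scaled to a common library total). Of 6 epithelial markers, the keratin genes KRT8, KRT18 and KRT19 were highest, at 1020 to 1183, 581.5 to 771.9 and 206 to 292.5 CPM. KRT7 had 7.85 to 13.1 CPM and EPCAM 6.49 to 9.22 CPM. CDH1 was near the floor, at 1.47 to 1.91 CPM with CAF and 0.72 to 1.36 CPM with CAF overexpressing PAI-1. The summed level of the 6 was 1826 to 1918 CPM with CAF and 1982 to 2271 CPM with CAF overexpressing PAI-1. Fibroblast markers stayed below 1 CPM throughout for 9 of 12. PDGFRA, a fibroblast receptor, had 1 count and DCN, a fibroblast proteoglycan, 3 counts over all 6 libraries. The summed level of the 12 was 379 to 411 CPM with CAF and 504 to 616 CPM with CAF overexpressing PAI-1, carried by COL1A1 and S100A4, which rose. The part of these levels in the results was not tested. The extraction protocol names Cal27, a squamous line, but none of 7 squamous markers reached 1 CPM in any library, and SPRR1B was at 0. CAF-overexpressing-PAI-1 replicate 2 stood apart with 3.78% of counts from mitochondrial genes, against 4.76% to 5.92% in the other libraries, and none of the 10 genes changed its call without it.

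Levels are CPM scaled by TMM, a factor that corrects for library composition, and differences are log2 fold changes of CAF overexpressing PAI-1 over CAF. Genes were called changed at a Benjamini-Hochberg adjusted p under 0.05 in edgeR's quasi-likelihood test over the 14960 genes tested. The words rose and fell refer to called genes alone. All 10 genes passed the filter on low counts. Of them, 8 changed, where 32.2% of all genes tested did. Rises numbered 6, where 17.2% of all genes tested rose, and falls 2, where 15.0% fell. The genes that rose were both D-type cyclins, both E-type cyclins, CDK4 and CDKN1A, and those that fell were CDKN1B and CDKN1C. The groups did not overlap for those 8 genes, while 43.4% of all genes tested had groups that did not overlap. The median log2 fold change of the 10 genes was 0.26, and that of all genes tested was -0.0015. In bulk RNA, a change in the share of cells of a kind or phase and a change per cell cannot be told apart.

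**Figure D1:**
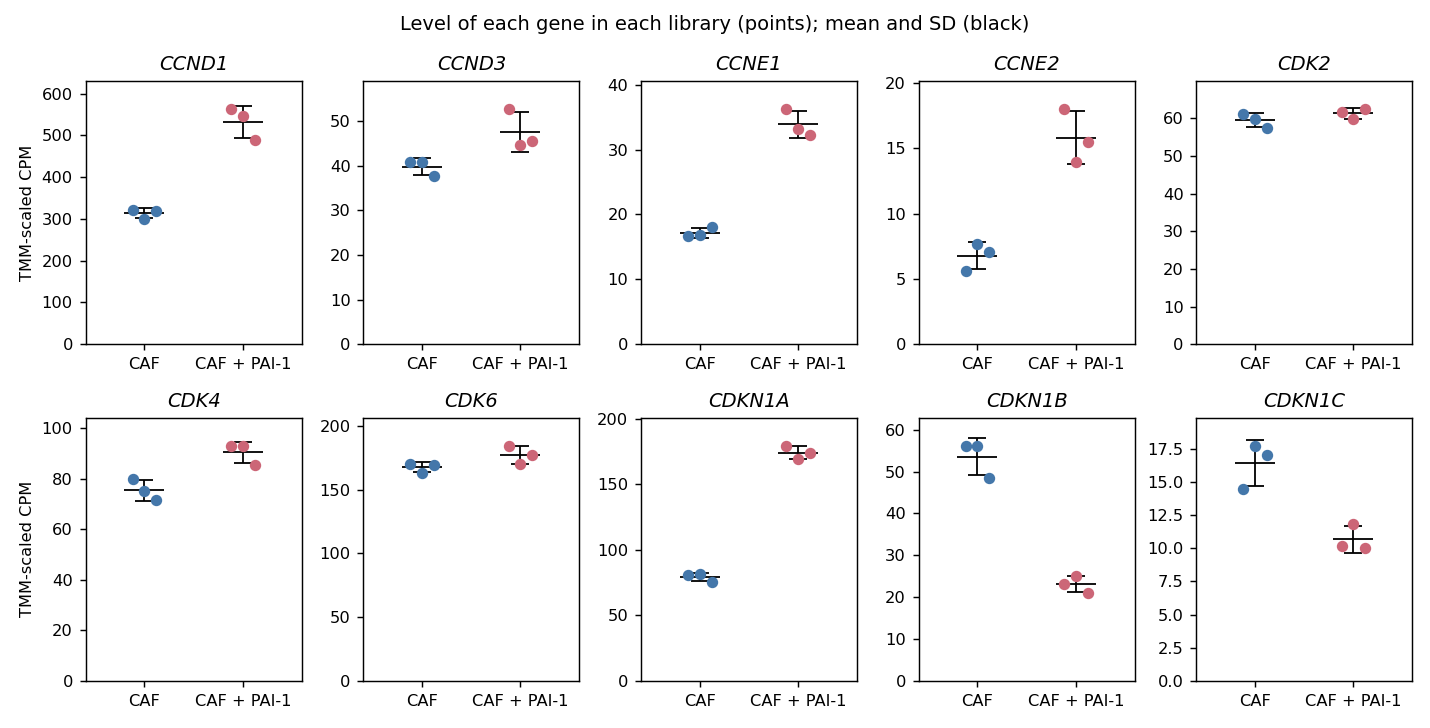
Level of each of the 10 genes in TMM-scaled CPM (vertical axes, from 0) in the 3 libraries of Panc-1 with CAF and the 3 with CAF overexpressing PAI-1 (CAF + PAI-1); points are libraries and black bars are the mean and SD. The libraries of the groups overlap for CDK2 and CDK6 and are apart for the other 8 genes.

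The D-type cyclin genes differed in the size of their rise. CCND1, whose product cyclin D1 pairs with CDK4 and CDK6, had 322, 299 and 318 CPM in the CAF libraries and 563, 546 and 489.8 CPM with CAF overexpressing PAI-1. Every library of the second group was above every library of the first. CCND1 rose 1.70-fold, from 313 ± 12.2 to 533 ± 38.2 CPM (SD, n = 3 each), with a log2 fold change of 0.77 (SE 0.057, edgeR adjusted p = 7.98e-13), which ranked 438 from the highest among the genes tested. CCND3, which encodes the related cyclin D3, had 40.8, 40.9 and 37.7 CPM with CAF and 52.7, 44.7 and 45.4 CPM with CAF overexpressing PAI-1. The highest CCND3 library, replicate 1 of the second group, stood above its other 2, and the groups did not overlap. CCND3 rose 1.195-fold (log2 fold change 0.26, SE 0.078, edgeR adjusted p = 0.0108). Its call was lost without that library (log2 fold change 0.18, adjusted p = 0.113), without CAF replicate 3 (0.22, adjusted p = 0.0663) and with scaling by library size alone (0.19, adjusted p = 0.0592). The third D-type cyclin gene, CCND2, had 1 to 7 counts per library and was not tested.

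CCND1 made up most of the D-type cyclin counts. Its share of CCND1 and CCND3 counts was 88.8%, 88.0% and 89.4% in the CAF libraries and 91.4%, 92.4% and 91.5% with CAF overexpressing PAI-1. The groups did not overlap, and the means differed by 3.08 percentage points. A two-sided exact permutation test gave p = 0.1 (adjusted p = 0.12 over the 6 shares compared), and 0.1 is the smallest p that 3 libraries against 3 allow. A share within a library does not depend on the scaling between libraries. CCND1 (ENSG00000110092) is found on chromosome 11 at 69641087 to 69654474, plus strand, in GENCODE release 29 on GRCh38, and its exons overlap those of LTO1 on the opposite strand. LTO1 had 389 to 539 counts against at least 4425 of CCND1, and did not pass the test (log2 fold change 0.10, adjusted p = 0.407).

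Both E-type cyclin genes rose. CCNE1, whose product activates CDK2 at the entry into S phase, had 16.6, 16.8 and 18.1 CPM with CAF and 36.2, 33.2 and 32.3 CPM with CAF overexpressing PAI-1. The lowest library of the second group was well above the highest of the first. CCNE1 rose 1.98-fold (log2 fold change 0.98, SE 0.093, edgeR adjusted p = 2.51e-10). CCNE2, which encodes the second E-type cyclin, had the lowest level per length of the 10 genes. Its libraries had 93, 122 and 98 counts (5.64, 7.69 and 7.05 CPM) with CAF and 266, 192 and 240 counts (18.0, 13.9 and 15.5 CPM) with CAF overexpressing PAI-1. The spread between replicates was wider than for CCNE1, with coefficients of variation of 15.4% and 12.9%, and the groups were still apart. CCNE2 rose 2.33-fold (log2 fold change 1.22, SE 0.14, edgeR adjusted p = 1.64e-08), with a 95% interval of 0.94 to 1.51.

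The rise of CCNE2 was not shown to exceed that of CCNE1. The share of CCNE2 in the counts of both was 25.3%, 31.4% and 28.1% with CAF and 33.2%, 29.6% and 32.5% with CAF overexpressing PAI-1. These ranges overlapped, and the two-sided exact permutation test over 3 libraries against 3 gave p = 0.2 (adjusted p = 0.2). Exons of CCNE2 overlap those of INTS8 on the opposite strand. INTS8, a subunit of the Integrator complex, had 680 to 973 counts and moved the other way (log2 fold change -0.23, adjusted p = 0.0112). Use of strand in the counting is not stated, so reads of overlapping exons cannot be told apart.

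The promoter of CCNE1 is shown because CCNE1 and CDKN1A rose by similar amounts and their upstream sequences can be set side by side. Sequences are from RefSeq on GRCh38.p14, read 5′ to 3′ on the gene's strand and counted back from the annotated start. The searched window was 250 bases before each start, 6 of the 10 genes had one, and only the stretch outside annotated exons is printed for these 2 genes. Capitals mark GC boxes, GGGCGG or its complement CCGCCC, the letters bound by SP1.
CCNE1, chr19:29811741-29811897, plus strand: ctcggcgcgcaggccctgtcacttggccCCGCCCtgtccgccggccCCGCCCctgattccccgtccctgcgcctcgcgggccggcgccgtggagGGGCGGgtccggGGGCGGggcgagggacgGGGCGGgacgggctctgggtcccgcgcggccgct
CDKN1A, chr6:36678464-36678657, plus strand: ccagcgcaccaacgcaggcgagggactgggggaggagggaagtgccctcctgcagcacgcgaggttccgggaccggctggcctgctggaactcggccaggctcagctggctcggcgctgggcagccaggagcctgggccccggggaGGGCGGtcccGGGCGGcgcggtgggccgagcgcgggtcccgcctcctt
The whole CCNE1 window held 7 GC boxes, 5 of them in the printed stretch, and that of CDKN1A held 4, of which 2 are printed and the other 2 overlap each other. A GC box was present in 42.6% of the 35116 windows of this length in the table, and GC content was 81.2% for CCNE1 and 76.4% for CDKN1A against a median of 58% over all windows. These traits were not particular to the 2 genes. The first start of CDK6, which was not called, had 3 GC boxes and 80.0% GC, and that of CCND3 had 5 and 74.4%. CDK4 had 3 GC boxes and 65.6% GC, and CDKN1B, which fell, had 1 and 64.4%. Further starts of CCND3 and CDK6 had 0 to 2 GC boxes. Other letters searched on both strands were TTTCCCGC and TTTGGCGC (E2F, in 1.93% of windows), GTAAACA (FOXO, 2.98%), TGACTCA (AP-1, 4.20%), TGACGTCA (CRE, 1.65%), CACGTG (E-box, 6.34%), GCGGGGGCG and GCGTGGGCG (EGR, 5.37%), TTTGAA and TTCGAA (CHR, 14.3%), CCAAT (32.0%) and TATAAA (10.7%). The windows of CCNE1 and CDKN1A held none of these. EGR letters can overlap a GC box.

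The kinase genes moved little. CDK2, the partner of cyclin E, had 61.2, 59.9 and 57.5 CPM with CAF and 61.6, 59.8 and 62.4 CPM with CAF overexpressing PAI-1, and the groups overlapped. Its log2 fold change was 0.04 with a 95% interval of -0.10 to 0.18 (edgeR adjusted p = 0.69), and it was -0.03 with scaling by library size alone. CDK6 had 170.4, 163 and 169 CPM with CAF and 184, 170.1 and 178 CPM with CAF overexpressing PAI-1. These ranges overlapped too, and the log2 fold change was 0.08 with an interval of -0.03 to 0.19 (edgeR adjusted p = 0.278). CDK4, the other partner of cyclin D, had 79.9, 75.1 and 71.4 CPM with CAF and 93.0, 92.8 and 85.6 CPM with CAF overexpressing PAI-1. All libraries of the second group were higher, and CDK4 rose 1.198-fold (log2 fold change 0.26, SE 0.065, edgeR adjusted p = 0.00206). Tested against a 1.2-fold change, CDK4 was not called (glmTreat adjusted p = 0.746). Its estimate of 1.198-fold lies below that bound, so this test says little about the call against no change.

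The balance between the 2 kinases of cyclin D shifted by a few points. CDK6 had 68.1%, 68.5% and 70.3% of CDK4 and CDK6 counts with CAF and 66.5%, 64.7% and 67.5% with CAF overexpressing PAI-1. The groups did not overlap, with means 2.76 percentage points apart at the smallest p possible (exact permutation p = 0.1, adjusted p = 0.12, two-sided). CDK2 had 19.7 ± 0.40% and 18.6 ± 0.50% of the counts of the 3 kinases (SD, n = 3 each), also without overlap and with the same p values in the exact permutation test. Exons of CDK4 overlap those of TSPAN31 on the opposite strand. TSPAN31, a tetraspanin gene, had 163 to 271 counts against at least 993 of CDK4, and fell (log2 fold change -0.32, adjusted p = 0.0324). Exons of CDK2 overlap those of PMEL, which had 24 to 45 counts. No count fell on the processed pseudogenes CDK4P1, CCND3P1 and CCND3P2.

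CDK4 is known as a MYC target, and its window held 3 E-boxes, CACGTG, the letters bound by MYC and MAX, which 6.34% of all windows held at least once. Of the 6 genes with a window, no other had one. Each is shown with 10 bases on either side, on the minus strand, with the E-box in capitals, and the first 2 pieces overlap.
CDK4, chr12:57752511-57752536: gtcaagcggtCACGTGtgatagcaac
CDK4, chr12:57752491-57752516: agcaacagatCACGTGgctgccatcg
CDK4, chr12:57752396-57752421: gggtggcggtCACGTGcccagaacgt
The window lies from 57752311 to 57752560 on chromosome 12, and 211 of its 250 bases are in exons of CDK4 transcripts in GENCODE release 29. The letters describe the sequence and not binding.

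**Figure D2:**
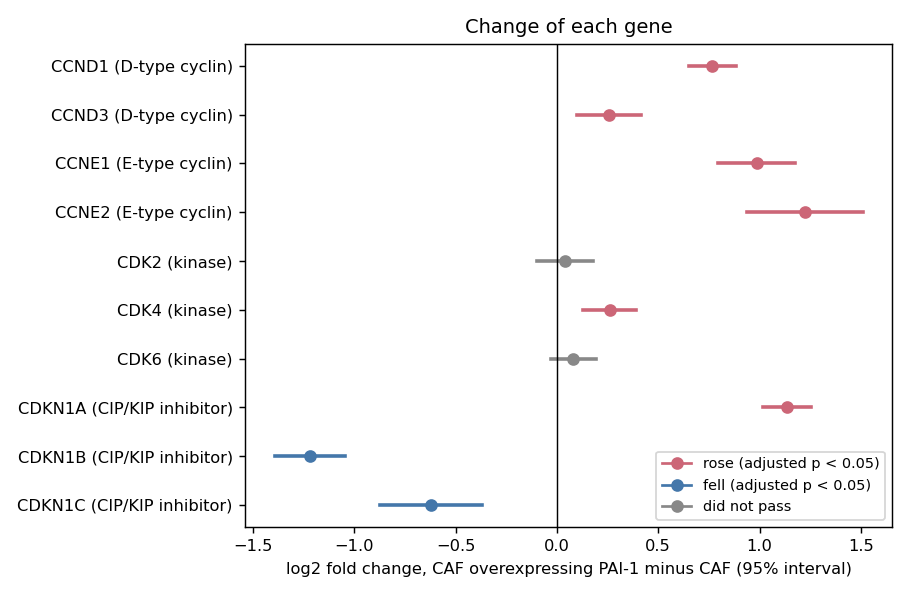
Log2 fold change of each gene, CAF overexpressing PAI-1 minus CAF (horizontal axis), as points with 95% intervals from the edgeR fit, coloured by call. Both E-type cyclins, CCND1 and CDKN1A lie between 0.77 and 1.22, CDKN1B and CDKN1C at -1.22 and -0.62, and the intervals of CDK2 and CDK6 include 0.

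The 3 CIP/KIP inhibitor genes did not move together. CDKN1A, which encodes p21 and is a p53 target also induced by growth factor and stress signals, had 80.8, 81.4 and 75.7 CPM with CAF and 179, 169 and 174 CPM with CAF overexpressing PAI-1. The libraries within each group lay close to each other and the groups were far apart. CDKN1A rose 2.19-fold, from 79.3 ± 3.16 to 174 ± 5.01 CPM (SD, n = 3 each), with a log2 fold change of 1.13 (SE 0.059, edgeR adjusted p = 9.99e-17). CDKN1B, which encodes p27, went the other way, with 56.1, 56.1 and 48.5 CPM with CAF and 23.2, 25.0 and 21.1 CPM with CAF overexpressing PAI-1. Its highest library of the second group was below the lowest of the first. CDKN1B fell to 0.43 of its level (log2 fold change -1.22, SE 0.085, edgeR adjusted p = 1.99e-13), which ranked 131 from the lowest among the genes tested.

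CDKN1C, which encodes p57 from an imprinted locus, had 238, 281 and 237 counts with CAF and 150, 163 and 155 counts with CAF overexpressing PAI-1. In CPM these were 14.4, 17.7 and 17.0 against 10.2, 11.8 and 10.0, with no overlap between groups. CDKN1C fell to 0.651 of its level (log2 fold change -0.62, SE 0.12, edgeR adjusted p = 0.000165). The 95% interval of the log2 fold change was 1.01 to 1.25 for CDKN1A and -1.39 to -1.04 for CDKN1B. CDKN1A (ENSG00000124762) is on chromosome 6 at 36676460 to 36687339 and CDKN1B (ENSG00000111276) on chromosome 12 at 12715058 to 12722371, both on the plus strand in GENCODE release 29 on GRCh38.

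The make-up of the inhibitor transcripts therefore shifted towards CDKN1A. CDKN1A had 53.4%, 52.4% and 53.6% of the counts of the 3 genes with CAF and 84.3%, 82.1% and 84.8% with CAF overexpressing PAI-1. The means differed by 30.6 percentage points, where the SD over libraries was 0.612 and 1.44 points (exact permutation p = 0.1, adjusted p = 0.12, two-sided, n = 3 each). Corrected for exon length, the shares were 50.3 ± 0.62% and 82.0 ± 1.57%. The summed CPM of the 3 genes was 149 ± 7.22 with CAF and 208 ± 4.02 with CAF overexpressing PAI-1. The sum of CDKN1B and CDKN1C alone was 70.0 ± 4.15 and 33.8 ± 2.89 CPM.

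**Figure D3:**
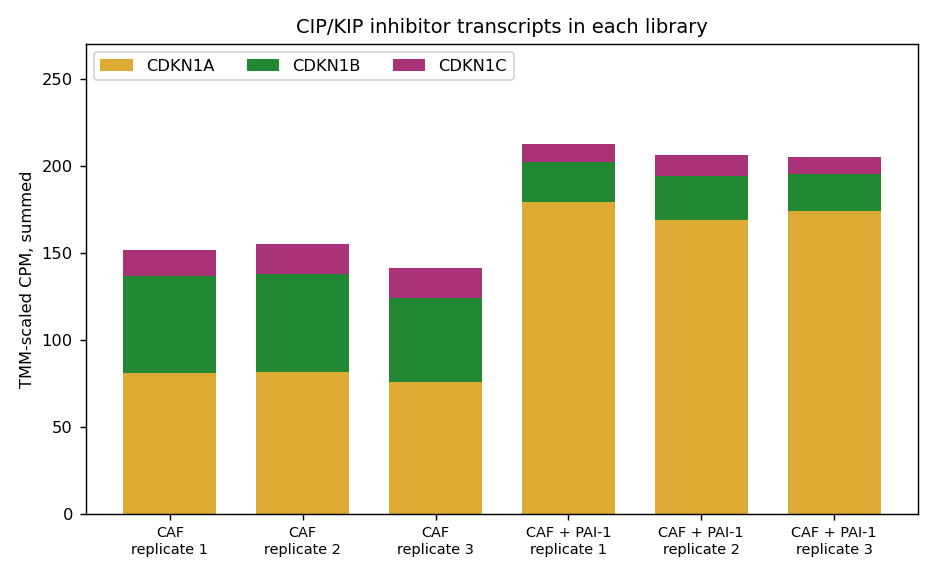
Summed level of CDKN1A, CDKN1B and CDKN1C in TMM-scaled CPM (vertical axis) in each of the 6 libraries; coloured segments are the genes. CDKN1A fills 52.4% to 53.6% of the counts behind the bars with CAF and 82.1% to 84.8% with CAF overexpressing PAI-1.

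The CDKN1B window is described because this was the gene with the lowest log2 fold change of the 10. It held 1 GC box and 2 CCAAT boxes, the letters bound by NF-Y, which 32.0% of all windows held at least once, and none of the other letters searched. The CCAAT boxes are shown in capitals with 10 bases on either side, on the plus strand.
CDKN1B, chr12:12717184-12717208: acgcgaccagCCAATctcccggcgg
CDKN1B, chr12:12717308-12717332: gccgccgcaaCCAATggatctcctc
Of the 250 bases of this window, 244 lie in exons of CDKN1B transcripts in GENCODE release 29, which annotates a start further upstream than RefSeq.

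Set against the 4 cyclin genes, inhibitors took a smaller part of the counts in the second group, although their own summed CPM was higher (149 and 208). CCND1, at 313 and 533 CPM, made up most of the cyclin level, so this share depends largely on CCND1. A share without CCND1 was not tested. CIP/KIP genes had 28.2%, 29.8% and 27.05% of the summed counts of the 3 inhibitor and 4 cyclin genes with CAF, and 24.1%, 24.4% and 26.0% with CAF overexpressing PAI-1. The groups did not overlap (means 3.53 percentage points apart, exact permutation p = 0.1, adjusted p = 0.12, two-sided). On counts per kb of exon the means were 39.2 ± 1.69% and 34.0 ± 1.21%. Summed D-type cyclin CPM was 353 ± 11.6 and 581 ± 41.0, summed E-type cyclin CPM 23.9 ± 1.48 and 49.7 ± 3.92, and summed kinase CPM 303 ± 7.60 and 329 ± 8.70 (SD, n = 3 each).

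On levels per length (TMM-scaled CPM per kb of exon, GENCODE release 29), CCND1 was the most abundant of the 10 transcripts in both groups, with 64.9 ± 2.52 and 110.3 ± 7.91. CDKN1A came next, with 26.0 ± 1.04 and 57.1 ± 1.64. With CAF its libraries overlapped those of CDK4, at 23.8 ± 1.34, and with CAF overexpressing PAI-1 they were above those of CDK4, at 28.6 ± 1.34. CDKN1B ranked the fourth with CAF, at 19.1 ± 1.55, and the seventh with CAF overexpressing PAI-1, at 8.22 ± 0.70, where its libraries overlapped those of CCND3. CDK2 at 15.3 ± 0.48 and 15.7 ± 0.34, and CDK6 at 13.7 ± 0.32 and 14.5 ± 0.58, followed each other without overlap in either group. CCNE1 stood with CCND3 and CDKN1C with CAF, at 6.72 ± 0.31, and overlapped CDK6 with CAF overexpressing PAI-1, at 13.3 ± 0.81. CCNE2 was the last in both groups, at 1.54 ± 0.24 and 3.60 ± 0.47, and overlapped CDKN1C in the second.

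**Figure D4:**
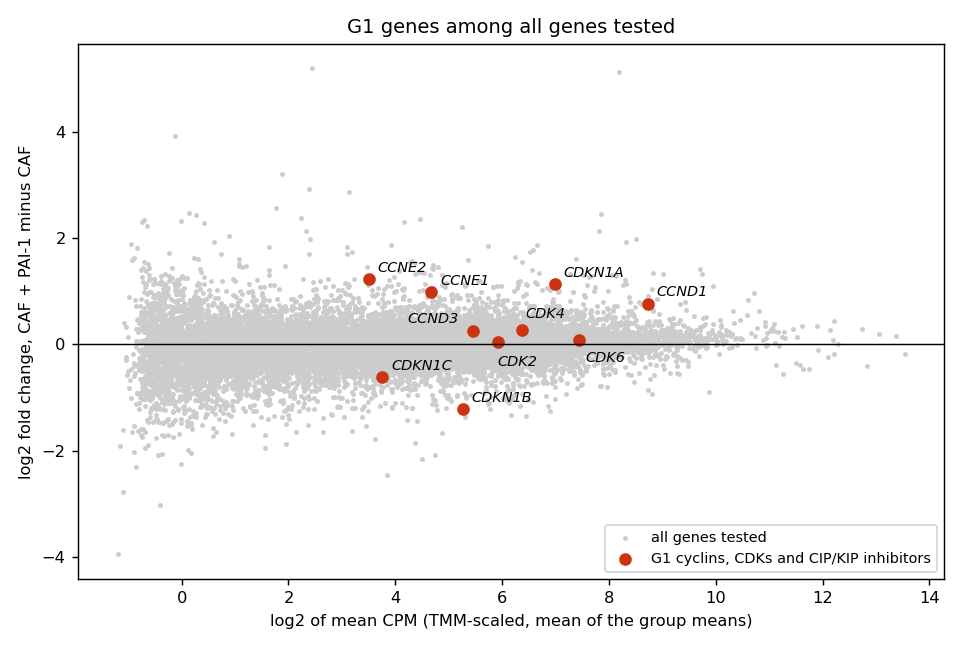
Log2 fold change (vertical axis, CAF overexpressing PAI-1 minus CAF) against log2 mean CPM (horizontal axis) for the 14960 genes tested (grey) and the 10 genes (red). CCNE2, CCNE1, CDKN1A and CCND1 lie towards the upper edge of the cloud at their level and CDKN1B towards the lower edge, while CDK2, CDK6, CDK4 and CCND3 lie within it.

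Some genes outside the list had profiles over the 6 libraries close to those of the strongest movers. Likeness was measured as the root-mean-square difference of log2 CPM, each gene centred on its own mean, over 10942 genes with at least 5 CPM. Closest to CDKN1A were SRF, the serum response factor (0.043), ACP7 (0.047) and FOSL2, a FOS-related factor of AP-1 (0.048). Closest to CCNE1 were EREG, a ligand of the EGF receptor (0.028), HSPA8, a chaperone (0.030), and NFKBIA, an NF-kappaB inhibitor (0.035). Closest to CCNE2 were NOCT (0.074), NPTX1 (0.087) and OXTR (0.11). Closest to CDKN1B were CENPA, the centromeric histone (0.053), TTK, a spindle checkpoint kinase (0.064), and CASTOR3 (0.069). All 12 were called in the direction of the member they resemble, and the measure is dominated by the difference between groups.

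Other genes of the RB-E2F pathway, 63 in 7 lists, went both ways. Of the 59 tested, 14 rose and 19 fell, and the median log2 fold change was -0.02. Over all genes tested, 17.2% rose and 15.0% fell, and the counts of each list are to be read beside these shares. Among the INK4 inhibitors, which bind CDK4 and CDK6, both genes tested fell. CDKN2C, which encodes p18, went from 65.7 ± 2.38 to 37.5 ± 2.81 CPM (SD, n = 3 each; log2 fold change -0.81, edgeR adjusted p = 1.11e-10), and CDKN2D, which encodes p19, from 10.4 ± 1.05 to 7.30 ± 0.37 CPM (-0.52, adjusted p = 0.00468). CDKN2A and CDKN2B, which encode p16 and p15, had 0 counts in all 6 libraries, which allows up to 0.187 to 0.22 CPM in a library by counting error. Loss of CDKN2A is known in Panc-1.

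Among pocket proteins and E2F/DP factors, 4 of 13 rose and 4 fell, with a median log2 fold change of 0.11. Named after their values were seen, the 3 pocket protein genes all fell, RB1 at -0.24, RBL1 at -0.30 and RBL2 at -0.32, and so did TFDP2, a dimer partner of E2F, at -0.35 (adjusted p from 0.000423 to 0.014). E2F3 at 0.36, E2F4 at 0.24, E2F6 at 0.41 and E2F7 at 0.31 rose (adjusted p from 6.39e-05 to 0.00555). E2F1, the activator best known for driving S phase, had 0.08 and did not pass (adjusted p = 0.445). Of the 4 genes of CDK activation, CDC25A, a phosphatase that activates CDK2, rose by 0.52 (adjusted p = 1.88e-05) and CCNH, the cyclin of the CDK-activating kinase, by 0.27 (adjusted p = 0.023), while MNAT1 at 0.15 and CDK7 at -0.02 did not pass. The CCNH call was lost with library size alone (0.20, adjusted p = 0.0886), against a 1.2-fold change (adjusted p = 0.696), and without CAF replicate 1, 2 or 3 (adjusted p = 0.0632, 0.0561 and 0.0556) or CAF-overexpressing-PAI-1 replicate 1 (0.0741).

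Of 6 genes of the ubiquitin ligases that degrade cyclin E and p27, CKS1B, a cofactor of p27 recognition, fell (log2 fold change -0.21, adjusted p = 0.0108) and none rose. The CKS1B call was lost without CAF-overexpressing-PAI-1 replicate 1 (-0.14, adjusted p = 0.112). It was also lost against a 1.2-fold change, a bound larger than the change of CKS1B itself. SKP2, the subunit that recognises p27, had 0.10 and FBXW7, which recognises cyclin E, also 0.10, while the scaffold genes CUL1 and CUL3 had 0.13 and -0.06, and none of these passed. E2F targets of S phase rose in 8 of 22 genes and fell in 4, with a median of 0.09. CDC6, a licensing factor, rose by 0.52 (adjusted p = 9.6e-07), MCM6, a helicase subunit, by 0.39 (adjusted p = 1e-05) and SLBP, the histone mRNA binding protein, by 0.39 (adjusted p = 0.000132).

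Cyclins that act after G1 went down. Of the 5 genes for later cyclins and CDK1, 4 were tested and all 4 fell, with a median of -0.83. CCNA2, the cyclin A of S phase and G2, went from 87.9 ± 6.24 to 47.9 ± 1.68 CPM (log2 fold change -0.88, edgeR adjusted p = 4.39e-12), and CCNB1, the main mitotic cyclin, from 290.4 ± 15.8 to 169 ± 13.8 CPM (-0.78, adjusted p = 2.31e-12). CCNB2 had -0.88 and CDK1, their kinase, -0.73, while CCNA1 had 0 to 3 counts and was not tested. So the D-type and E-type cyclins rose in the same libraries in which the A-type and B-type cyclins fell. Of 8 genes of the DREAM complex and quiescence, 4 fell and none rose, with a median of -0.56. CCNG2, an unconventional cyclin of resting cells, had -2.16, CCNG1, a p53-inducible cyclin, -0.83, and LIN9 and LIN52, of the MuvB core of DREAM, -0.54 and -0.57 (adjusted p from 2.79e-15 to 0.00086).

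**Figure D5:**
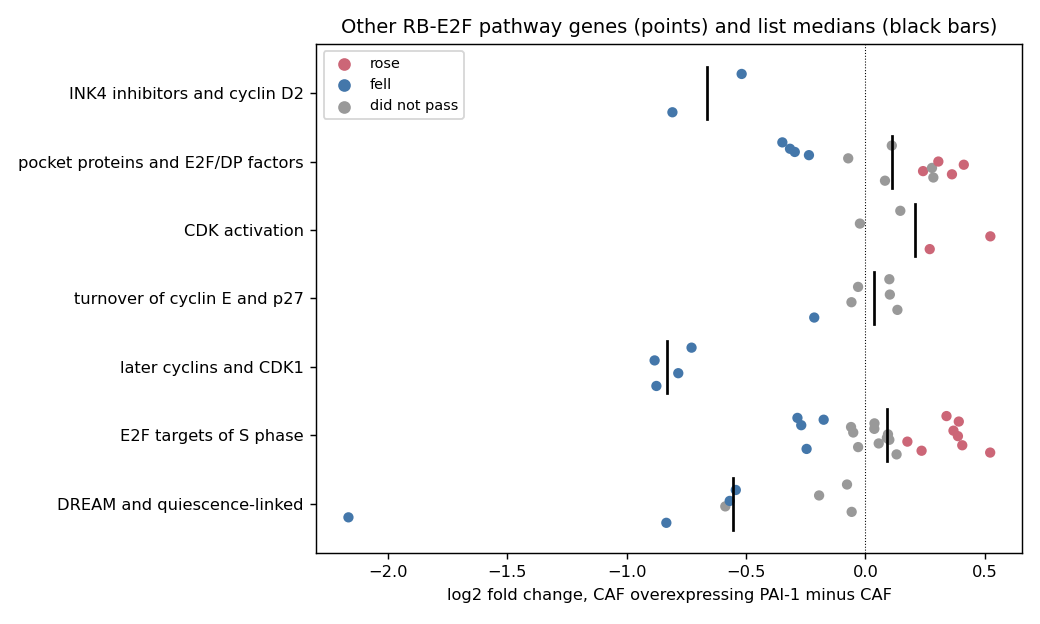
Log2 fold change (horizontal axis) of the 59 tested genes of 7 lists of the RB-E2F pathway (rows); points are genes, coloured by call, and black bars are list medians. The later cyclins with CDK1 (median -0.83), the INK4 genes and the DREAM and quiescence genes lie to the left, and the lists of E2F factors and of S phase targets spread to both sides of 0.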

How the data were processed

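The authors deposited 1 table of whole-number read counts per gene with 6 columns, 1 per library, and 0 further columns of sample values were left aside. Per the labels' protocols, RNA was selected with oligo-dT beads, and BWA, Bowtie2, RSEM and hg19 stand in the submitters' processing notes without roles or versions. The sources used here do not give the counting step. All 58735 gene identifiers are in GENCODE release 29 on GRCh38, while the notes give hg19, so coordinates identify genes and not alignments.

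Counts were fitted with edgeR 4.0.16 in R 4.3.3 (filterByExpr with minimum count 10 and minimum total 15, TMM, robust glmQLFit and glmQLFTest, no covariates). The standard error of a log2 fold change was its unshrunken value over the root of F. The script was tested on simulated data. Shares were compared by exact permutation (scipy 1.17.1). Pairs of libraries of a group had a chi-square per degree of freedom of 2.58 to 9.51, so that each counted as 1 replicate. The 10 genes, the lists and the rule for named genes (all 10, the 3 smallest p of each list, genes not tested, and the 3 most alike genes) were chosen with earlier results of these data known, and genes named beyond the rule after their values were seen. Counting limits cover counting error only. Tried as alternatives were library size alone, RLE scaling, no filter on low counts, a mean of at least 10 CPM, DESeq2 1.42.0, limma-voom (limma 3.58.1), glmTreat with a 1.2-fold bound, non-robust estimation, a replicate block and each library left out. Some results are not reported here.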

Additional observations from a re-analysis of the deposited data

How the results depend on the processing

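CCND1, CCNE1, CCNE2, CDKN1A, CDKN1B and CDKN1C kept direction and call under all 15 alternatives, with log2 fold changes of 0.70 to 0.82, 0.92 to 1.02, 1.10 to 1.33, 1.07 to 1.15, -1.28 to -1.15 and -0.71 to -0.56. CCND3 lost its call with library size alone (0.19, adjusted p = 0.0592), against a 1.2-fold change with glmTreat (0.26, adjusted p = 0.762), and without CAF replicate 3 or CAF-overexpressing-PAI-1 replicate 1 (range over libraries left out 0.18 to 0.30). CDK4 lost it with glmTreat alone (0.26, adjusted p = 0.746), and CDK2 reversed with library size alone (-0.027). The estimates of CCND3 and CDK4, 1.195-fold and 1.198-fold, lie below the 1.2-fold bound, so their loss with glmTreat follows from their size. Library size alone gave 1839 genes higher and 3182 lower against 2571 and 2239, and moved the median log2 fold change to -0.07; the members were then 5 higher and 2 lower. glmTreat left 828 higher and 783 lower, 4 and 2 of the members and 2 and 9 of the other pathway genes, since it asks for a larger change. Leaving out 1 library gave 9 to 14 other pathway genes higher, the lowest without CAF-overexpressing-PAI-1 replicate 1. Per kb of exon, the CDK2 share differed by -2.19 and the inhibitor share by -5.26 percentage points. For 33 other named genes, 478 of 492 values kept direction and call and 14 kept direction only, 6 of them of CCNH and 2 of CKS1B.

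Deviations of same-numbered libraries from their group means correlated across genes at r = 0.041, 0.16 and 0.018. Between libraries of different number, r was -0.12 to 0.080. With 3 libraries a group, these values cannot show whether same-numbered libraries shared a batch. With the replicate number as a block, 2708 genes were higher and 2361 lower, 6 and 2 of the members were called, and no member changed call. The 95% intervals of the log2 fold change of CDK2 (-0.10 to 0.18) and CDK6 (-0.03 to 0.19) include 0 at 13628508 to 16006880 counts a library.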
